A study of Mus musculus with 12 samples.

Results

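The transcription factor gene Trp53 (p53) and 9 of its known target genes, Mdm2, Cdkn1a, Ccng1, Sesn2, Eda2r, Phlda3, Aen, Zmat3 and Trp53inp1, were followed across cultured mouse hematopoietic stem cells (HSCs) with and without the ETV6-RUNX1 fusion. The genes were chosen by symbol, 1 row per gene ID, so the set is 10 of the 40481 genes listed, and all 10 passed the filter on low values that left 14271 genes tested. RNA was sequenced in 12 libraries, 3 in each of 4 groups. The WT fetal liver and ETV6-RUNX1 fetal liver groups were HSCs of embryos at E14.5, and the WT bone marrow and ETV6-RUNX1 bone marrow groups were HSCs of 8-week-old mice. ETV6-RUNX1, a fusion found in childhood B-cell leukemia, was inducible (iE/R in the labels). Cells of all 4 groups, WT included, spent 3 days in an HSC expansion culture with 1 µg/mL doxycycline, so no group is free of culture or of the drug. The sources used here do not give the promoter or locus that drives the fusion, the sex of the mice, or the number of animals behind a library. They also do not say whether replicates are separate animals, and p-values measure the spread between these libraries, which may be technical.

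The p53 protein is a transcription factor that responds to DNA damage and other stress. It binds paired copies of a short sequence near its target genes and raises their transcription. It is controlled chiefly at the protein level, by the ubiquitin ligase that Mdm2 encodes, and Mdm2 is itself a p53 target, which closes a feedback loop. In HSCs the pathway is known for roles in quiescence, in the loss of damaged cells and in the response to ex vivo culture. RNA levels, as measured here, do not report the amount or activity of the protein.

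The sequences p53 binds differ between target promoters, and the stretches below show a paired site found close to a start in each of 2 targets, with the single site of Aen. RefSeq promoters (GRCm38.p6, 250 bases before to 50 bases after a start) were at hand for 8 of the 10 genes, all but Zmat3 and Trp53inp1. Capitals mark the match to the p53 consensus, and each sequence is written 5′ to 3′ on the strand of its gene.
Cdkn1a, chr17:29090908-29090967, plus strand: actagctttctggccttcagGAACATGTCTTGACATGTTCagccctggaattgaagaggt
Ccng1, chr11:40755442-40755501, minus strand: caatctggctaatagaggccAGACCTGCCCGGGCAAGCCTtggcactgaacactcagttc
Aen, chr7:78895927-78895956, plus strand: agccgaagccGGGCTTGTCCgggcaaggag
The search, on both strands, allowed 1 mismatch outside the C and G core of each 10-base unit and a gap of 0 to 13 bases between the paired units. The Cdkn1a match lay 51 to 32 bases before the upstream of its listed starts and the Ccng1 match 195 to 176 bases before its start, each with no gap and 1 mismatch over its 20 bases. The window of that Cdkn1a start held 3 units that formed 2 allowed pairs, and the pair with the smallest gap is shown. The window of the other listed Cdkn1a start held no unit. Paired matches were present in 2.71% of the 32851 promoters searched. Single units were far more common, in 50.9% of promoters, and occurred in Trp53, Mdm2, Aen and Eda2r as well, while the Sesn2 and Phlda3 windows held none. The CCAAT box was found in Trp53, Mdm2, Ccng1, Sesn2, Aen and Eda2r, against 37.4% of all promoters, and the core of the interferon-stimulated response element, present in 3.44%, was found in none of the 8 genes. A match describes these letters only.

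Library totals were 32.3 to 64.5 M reads, and 3 reads, taken as the limit of detection, equalled 0.0465 to 0.0928 CPM (read counts scaled to a common library total), which covers counting error only. The smallest number of reads behind any value of the 10 genes was 41, for Phlda3. Calls below are limma adjusted p-values (Benjamini-Hochberg over 14271 genes) under 0.05, and log2 fold changes are on the log2(CPM + 1) scale, which understates changes of low genes. No pair of replicates came close to being a duplicate (chi-square per degree of freedom of at least 34.3). HSC markers were detected in every group, at a summed 1560 to 1920 CPM in WT and 3880 to 4000 CPM in ETV6-RUNX1 fetal liver, and 1670 to 2490 against 2780 to 3050 CPM in bone marrow. In bulk samples such as these, fewer cells of a type and less RNA per cell cannot be told apart.

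Scaled by exon length, Trp53 stood far above its targets in every group, at 158 CPM per kb in WT fetal liver, 96.4 in ETV6-RUNX1 fetal liver, 159 in WT bone marrow and 140 in ETV6-RUNX1 bone marrow. Among the targets Cdkn1a and Ccng1 came next in WT cells, at 35.9 and 32.3 CPM per kb in fetal liver and 15 and 27.1 CPM per kb in bone marrow. In WT fetal liver they were followed by Mdm2 at 13.3, Aen at 10.5, Sesn2 at 5.35 and Phlda3 at 4.03 CPM per kb, with Eda2r, Trp53inp1 and Zmat3 at 2.18, 1.85 and 1.64. On that scale the libraries of neighbours in this order overlapped, except between Trp53 and Cdkn1a, between Ccng1 and Mdm2, and between Aen and Sesn2. In ETV6-RUNX1 fetal liver Cdkn1a, Ccng1 and Mdm2 stood at 53.9, 36.7 and 26.3 CPM per kb, Sesn2, Aen and Trp53inp1 at 7.72, 7.16 and 5.39, and Phlda3, Zmat3 and Eda2r at 3.13, 1.64 and 1.54. In ETV6-RUNX1 bone marrow the same genes held 33.8, 33.4 and 17.3 CPM per kb, then 10.7, 8.23 and 3.3, and for Phlda3, Zmat3 and Eda2r 1.95, 1.03 and 1.24. In WT bone marrow Ccng1 and Cdkn1a were followed by Mdm2 at 10.2, Aen at 7.7, Sesn2 at 4.72, Trp53inp1 at 2.69, Phlda3 at 2.04, Eda2r at 1.62 and Zmat3 at 0.88 CPM per kb. In both fusion groups the libraries of Cdkn1a and Ccng1 and those of Sesn2 and Aen overlapped, while Mdm2 stood apart from the genes above and below it. Trp53 was thus the most abundant per length and Zmat3 and Eda2r among the 3 lowest in each of the 4 groups.

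**Figure D1:**
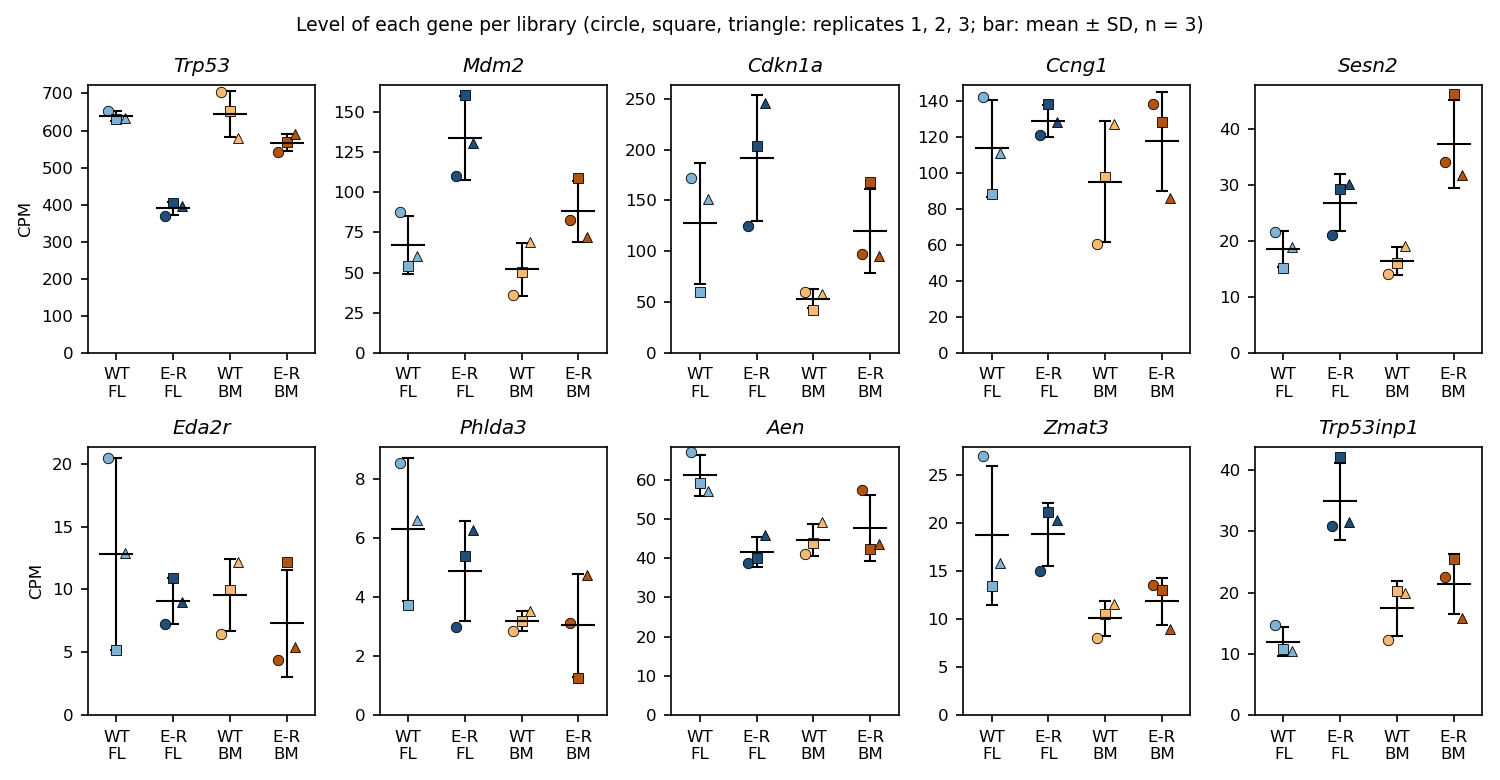
Level of each of the 10 genes in CPM on linear axes from 0, 1 panel per gene, for WT and ETV6-RUNX1 (E-R) cells of fetal liver (FL) and bone marrow (BM), with a point per library and bars for the mean ± SD of each group (n = 3). The points of Trp53 in ETV6-RUNX1 fetal liver (370 to 403 CPM) lie below all 9 others, and those of Trp53inp1 in the same group (30.9 to 42.2 CPM) lie above all others.

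In fetal liver the RNA of Trp53 and Aen was lower, and that of Mdm2 and Trp53inp1 higher, in ETV6-RUNX1 than in WT cells, while the other 6 genes did not pass the test. Thus 4 of 10 genes were called, beside 43.1% of all genes tested, so the number of calls is close to the background. The 2 calls in each direction compare with 24.8% of all genes called higher and 18.3% called lower. The median log2 fold change was 0.13 over the 10 genes and 0.08 over all genes tested.

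Trp53 (ENSMUSG00000059552, GRCm38 chromosome 11, 69580359 to 69591873) encodes p53 itself. It measured 654, 631 and 633 CPM in WT fetal liver and 370, 403 and 396 CPM in ETV6-RUNX1 fetal liver. Replicates were tight and the groups were far apart, with means of 639 ± 13.2 and 390 ± 17.3 CPM (SD, n = 3), a ratio of 0.61. The log2 fold change was -0.71 ± 0.11 (SE; limma adjusted p = 0.000166). The processed pseudogene Trp53-ps, a near copy whose reads could be mixed with those of the gene, held a mean of 0.747 CPM in WT and 0.720 CPM in ETV6-RUNX1 fetal liver. Trp63 and Trp73, the relatives of Trp53, had at most 6 reads in any library.

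Mdm2 (ENSMUSG00000020184, chromosome 10, 117688875 to 117710758), the ligase that marks p53 for degradation, measured 87.9, 54 and 60.2 CPM in WT and 110, 161 and 131 CPM in ETV6-RUNX1 fetal liver. All 3 fusion libraries were above all 3 WT libraries, and the mean was 1.99 times as high. The log2 fold change of Mdm2 was 0.99 ± 0.24 (limma adjusted p = 0.00469). Mdm2 RNA was therefore higher in the same libraries in which Trp53 RNA was lower.

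The cell cycle targets did not pass the test in fetal liver. Cdkn1a (ENSMUSG00000023067, chromosome 17, 29090976 to 29100727), which encodes the p21 inhibitor of cyclin-dependent kinases, measured 172, 59.8 and 151 CPM in WT and 125, 204 and 246 CPM in ETV6-RUNX1. The groups overlapped, and the log2 fold change of 0.67 ± 0.35 had a 95% interval from -0.09 to 1.42 (limma adjusted p = 0.143), which includes a rise of the size called for Mdm2. A transcript model on the opposite strand, AC167363.2, shares 273 exon bases with Cdkn1a, and the use of strand in counting is not given in the sources used here. Ccng1 (ENSMUSG00000020326, chromosome 11, 40748552 to 40755311), which encodes cyclin G1, measured 142, 88 and 111 CPM in WT and 121, 138 and 128 CPM in ETV6-RUNX1, with an interval of -0.33 to 0.74 for its log2 fold change. These are the 2 genes shown with paired p53 sites. The search covered only windows near a start and had none for Trp53inp1 or Zmat3, so it cannot relate sites to calls.

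Sesn2 (ENSMUSG00000028893, chromosome 4, 132492032 to 132510501), a stress-induced inhibitor of growth signalling through mTORC1, measured 21.6, 15.2 and 18.9 CPM in WT and 21, 29.2 and 30.2 CPM in ETV6-RUNX1 fetal liver. One library of the fusion group lay inside the WT range. The log2 fold change was 0.50 ± 0.20 (limma adjusted p = 0.0581), which just missed the threshold.

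Of the genes of death and survival signalling, only Aen was called in fetal liver. Aen (ENSMUSG00000030609, chromosome 7, 78895854 to 78911209), a nuclease that p53 induces in dying cells, measured 66.9, 59.2 and 57 CPM in WT and 38.7, 40.1 and 45.8 CPM in ETV6-RUNX1. The groups did not overlap, and the log2 fold change was -0.55 ± 0.15 (limma adjusted p = 0.00924). Eda2r (ENSMUSG00000034457, chromosome X, 97333840 to 97377216), a receptor of the tumor necrosis factor receptor family, ranged from 5.19 to 20.5 CPM in WT and from 7.25 to 10.9 CPM in ETV6-RUNX1. Phlda3 (ENSMUSG00000041801, chromosome 1, 135766119 to 135769136), which restrains the kinase Akt, ranged from 3.71 to 8.54 CPM and from 2.98 to 6.27 CPM. Both genes overlapped widely, with log2 fold change intervals of -1.18 to 0.57 for Eda2r and -1.02 to 0.43 for Phlda3.

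Trp53inp1 (ENSMUSG00000028211, chromosome 4, 11156431 to 11174379), which encodes a nuclear protein that acts with p53 and in autophagy, had the largest change among the 10 genes in fetal liver. It measured 14.7, 10.8 and 10.4 CPM in WT and 30.9, 42.2 and 31.6 CPM in ETV6-RUNX1. The lowest fusion library had more than the highest WT library, the mean was 2.91 times as high, and the log2 fold change was 1.47 ± 0.23 (limma adjusted p = 0.000194). Zmat3 (ENSMUSG00000027663, chromosome 3, 32334792 to 32366014), an RNA-binding regulator of splicing and RNA stability, had means of 18.7 ± 7.23 and 18.8 ± 3.33 CPM (SD, n = 3). Its log2 fold change was 0.05 with an interval of -0.49 to 0.59, and it turned negative under other scalings (-0.02 with median-of-ratios and -0.21 with quantile normalization).

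Summed Y-linked RNA moved with genotype in fetal liver, at 64.6 to 119 CPM in WT and 198 to 220 CPM in ETV6-RUNX1. The Y-linked covariate was the mean log2(CPM + 1) of the 4 Y-linked genes, which overlaps with genotype there. With it the log2 fold changes were -0.61 for Trp53, 0.55 for Trp53inp1, -0.77 for Aen and -0.09 for Mdm2 (limma adjusted p of 0.0955, 0.401, 0.122 and 0.915). Sex composition and genotype therefore cannot be told apart for these 4 calls. In that fit Eda2r and Ccng1 were called lower instead (-2.27 and -1.02, limma adjusted p of 0.0118 and 0.0416). The same fit called 1081 of all genes tested, 311 of them lower. With a covariate for the percentage of reads that fell in processed pseudogenes (1.65% to 2.37% in WT and 1.23% to 1.91% in ETV6-RUNX1 fetal liver), the log2 fold change of Mdm2 was 0.61 (limma adjusted p = 0.054). Summed markers of other cell types differed too, from 83.2 to 105 CPM in WT and 209 to 262 CPM in ETV6-RUNX1 for 6 erythroid genes, from 3050 to 4500 and 7040 to 7650 CPM for 6 megakaryocyte genes, and from 218 to 295 and 46.7 to 58.5 CPM for 6 granulocyte and monocyte genes. The mast cell and basophil genes overlapped (94.7 to 137 and 78.5 to 115 CPM), and the lymphoid genes summed to at most 1.6 CPM. Among the defining genes, Ly6c2 and S100a8 in WT, and Elane, S100a8, Mcpt8 and Fcer1a in ETV6-RUNX1 fetal liver, were at or under the detection limit in all 3 libraries. The part of these cell types in the changes of the 10 genes was not tested.

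In bone marrow Sesn2, Cdkn1a and Mdm2 had more RNA in the fusion cells than in WT cells, and none of the 10 genes was called lower. That is 3 of 10 genes, beside 19.4% of all genes tested that were called, 14.4% higher and 4.93% lower. The median log2 fold change was 0.25 over the 10 genes and 0.13 over all genes tested.

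Sesn2 had the firmest difference. It measured 14, 16.1 and 19.1 CPM in WT and 34, 46.3 and 31.7 CPM in ETV6-RUNX1 bone marrow. The groups were well apart, the ratio of means was 2.28, and the log2 fold change was 1.13 ± 0.20 (limma adjusted p = 0.00232). It stayed past the threshold in all 23 alternatives run, with adjusted p from 4.02e-05 to 0.0145. A gene model inside the Sesn2 locus, Gm12981, shares no exon base with it and had at most 0.598 CPM.

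Cdkn1a measured 59.5, 42.5 and 58.1 CPM in WT and 97.3, 168 and 94.9 CPM in ETV6-RUNX1 bone marrow. Every fusion library was above every WT library, the mean was 2.25 times as high, and the log2 fold change was 1.12 ± 0.35 (limma adjusted p = 0.0392). Mdm2 measured 35.9, 50.6 and 69.3 CPM in WT and 83.1, 109 and 72.3 CPM in ETV6-RUNX1 bone marrow. The nearest libraries were 69.3 and 72.3 CPM, so the groups were separate by a narrow margin, and the log2 fold change of Mdm2 was 0.78 ± 0.24 (limma adjusted p = 0.0378).

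The last 2 calls were close to the threshold. Cdkn1a passed in 12 and Mdm2 in 13 of 23 alternatives. With median-of-ratios scaling, which moved the median of all genes from 0.13 to 0.01, the values were 0.98 for Cdkn1a and 0.64 for Mdm2 (limma adjusted p of 0.0661 and 0.0591). Both calls were lost when WT replicate 1 or 2 or ETV6-RUNX1 replicate 1 or 2 was left out, and Cdkn1a also without WT replicate 3, with the highest adjusted p without ETV6-RUNX1 replicate 2 (0.85 for Cdkn1a and 0.62 for Mdm2, limma adjusted p of 0.162 and 0.151). Without WT replicate 1 the log2 fold change of Mdm2 was 0.54 (limma adjusted p = 0.129).

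Trp53 itself was not called in bone marrow. It measured 703, 652 and 579 CPM in WT and 543, 570 and 590 CPM in ETV6-RUNX1. The ranges met at the lowest WT library, and the log2 fold change of -0.18 had an interval of -0.42 to 0.06 (limma adjusted p = 0.266). Trp53inp1 measured 12.2, 20.2 and 19.9 CPM in WT and 22.6, 25.5 and 15.9 CPM in ETV6-RUNX1, with an interval of -0.21 to 0.78.

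The remaining 5 genes overlapped between genotypes in bone marrow. Aen had means of 44.7 ± 4.07 and 47.7 ± 8.45 CPM in WT and ETV6-RUNX1, Ccng1 had 95.1 ± 33.4 and 117 ± 27.4 CPM, and Zmat3 had 10.1 ± 1.83 and 11.8 ± 2.49 CPM (SD, n = 3). Eda2r had 9.54 ± 2.86 and 7.33 ± 4.26 CPM, and Phlda3 had 3.18 ± 0.328 and 3.04 ± 1.74 CPM. For Ccng1 the log2 fold change interval was -0.20 to 0.87. For Aen the interval was -0.24 to 0.40, and its sign turned with median-of-ratios scaling (-0.06).

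In bone marrow the summed Y-linked RNA was 229 to 288 CPM in WT and 268 to 389 CPM in ETV6-RUNX1, and the groups overlapped. With the Y-linked covariate Sesn2 stayed called and Eda2r was called lower (-0.96, limma adjusted p = 0.0409), beside 1987 of all genes tested, 515 of them lower. The log2 fold changes of Cdkn1a and Mdm2 were then 0.75 and 0.48 (limma adjusted p of 0.12 and 0.0958). Summed erythroid genes (39.6 to 63.3 and 55.4 to 65 CPM), megakaryocyte genes (1360 to 1810 and 464 to 2080 CPM) and mast cell and basophil genes (132 to 147 and 143 to 174 CPM) overlapped between the genotypes, and granulocyte and monocyte genes summed to 153 to 308 CPM in WT and 102 to 128 CPM in fusion cells.

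**Figure D2:**
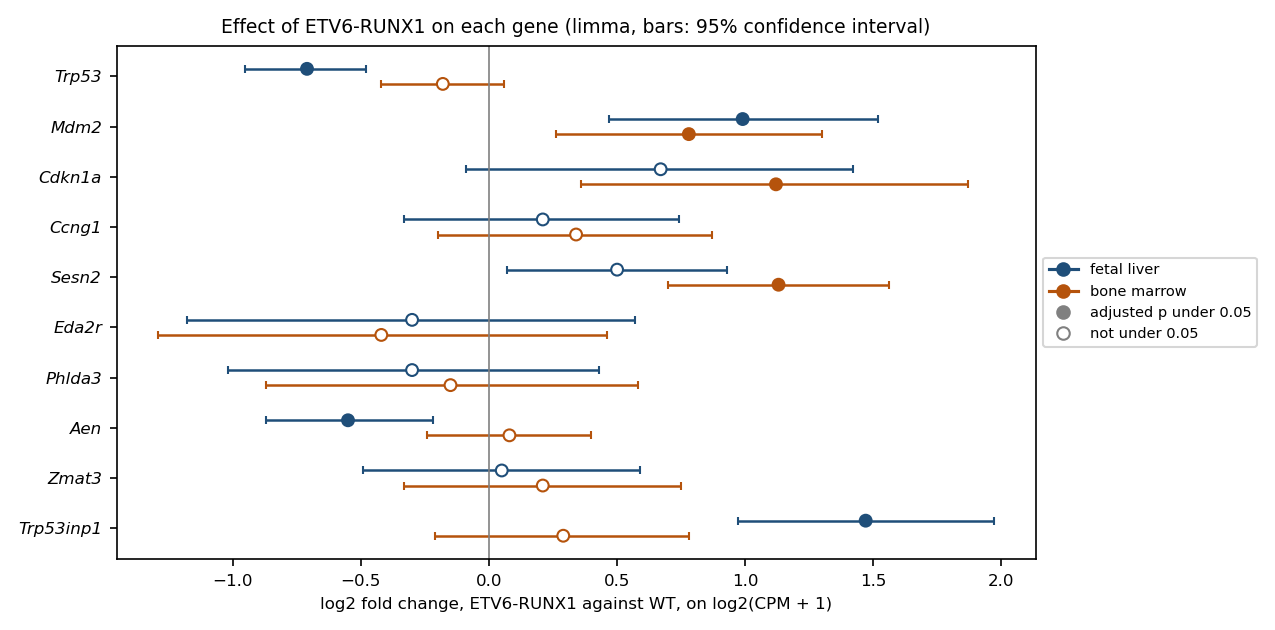
Log2 fold change of ETV6-RUNX1 against WT on the log2(CPM + 1) scale for each of the 10 genes, in fetal liver and in bone marrow, with 95% intervals from limma and filled points for genes called. Trp53 lies at -0.71 in fetal liver and -0.18 in bone marrow, and Sesn2 at 0.50 and 1.13.

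Whether the fusion's effect differed between the sources was tested directly, as the effect in fetal liver minus that in bone marrow. Trp53 and Trp53inp1 were called, 2 of 10 genes, beside 9.19% of all genes tested (5.56% with a higher and 3.62% with a lower effect in fetal liver). The Trp53 difference was -0.53 ± 0.16 (interval -0.87 to -0.20, limma adjusted p = 0.0475), a larger fall in fetal liver. That of Trp53inp1 was 1.18 ± 0.33 (interval 0.48 to 1.88, limma adjusted p = 0.038), a larger rise in fetal liver. Both were near the threshold, and Trp53 passed in 4 and Trp53inp1 in 10 of 22 alternatives, with adjusted p from 0.0109 to 0.291 and from 0.00161 to 0.561. The Trp53inp1 difference was 0.36 with the pseudogene covariate and 0.52 with the Y-linked covariate (limma adjusted p of 0.561 and 0.521). For Trp53 the call was lost without any 1 of 11 of the 12 libraries, all but WT bone marrow replicate 1. For Trp53inp1 it was lost without any 1 of 8 libraries, which were WT fetal liver replicates 2 and 3, ETV6-RUNX1 fetal liver replicates 1 and 2, WT bone marrow replicates 2 and 3, and ETV6-RUNX1 bone marrow replicates 1 and 3.

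Aen and Sesn2 did not pass, with differences of -0.63 (interval -1.08 to -0.17, limma adjusted p = 0.0763) and -0.63 (interval -1.24 to -0.02, limma adjusted p = 0.177). The effects on Mdm2, the gene called in both sources, differed by 0.21 with an interval of -0.52 to 0.95, and those on Cdkn1a by -0.45 with an interval of -1.52 to 0.61. Intervals this wide leave room for differences as large as the effects themselves.

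Comparing fetal liver with bone marrow within a genotype uses the same 12 libraries again. In WT cells none of the 10 genes was called by limma, beside 11.1% of all genes tested (3.38% higher and 7.77% lower in fetal liver). Cdkn1a, Zmat3, Aen and Phlda3 had an unadjusted limma p under 0.05, were higher in fetal liver and did not overlap between the groups. The share of all genes tested that did so was not computed, so this describes these genes only. Cdkn1a measured 172, 59.8 and 151 CPM in fetal liver and 59.5, 42.5 and 58.1 CPM in bone marrow, with the second fetal liver library next to the highest bone marrow library. The log2 fold changes were 1.12 for Cdkn1a, 0.79 for Zmat3 and 0.44 for Aen (limma adjusted p of 0.0565, 0.06 and 0.0747). Those same 3 genes were called by edgeR on recovered reads and by DESeq2, and with median-of-ratios and quantile scaling in limma, so the count of 0 depends on the test and scaling. Without WT fetal liver replicate 2 the Cdkn1a value was 1.59 (limma adjusted p = 0.00366). Trp53 had means of 639 and 645 CPM in WT fetal liver and bone marrow, with a log2 fold change interval of -0.24 to 0.23. Summed Y-linked RNA in WT cells was 64.6 to 119 CPM in fetal liver and 229 to 288 CPM in bone marrow, without overlap. With the Y-linked covariate 5 of the 10 genes were called, all higher in fetal liver, beside 256 of all genes tested. Sex composition and source cannot be told apart in this comparison.

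In ETV6-RUNX1 cells Trp53 was lower and Trp53inp1 higher in fetal liver than in bone marrow, 2 of 10 genes beside 28.6% of all genes tested (10.4% higher and 18.2% lower). Trp53 measured 370 to 403 CPM in fetal liver against 543 to 590 CPM in bone marrow, and the log2 fold change was -0.54 ± 0.11 (limma adjusted p = 0.00237). It was -0.37 with median-of-ratios scaling (limma adjusted p = 0.0588), which moved the median of all genes from -0.16 to -0.01. With edgeR it was -0.38 (edgeR adjusted p = 0.051), and 21 of 23 alternatives kept the Trp53 call. Trp53inp1 measured 30.9 to 42.2 CPM against 15.9 to 25.5 CPM, with a log2 fold change of 0.70 ± 0.23 (limma adjusted p = 0.0371), and 16 of 23 alternatives kept its call. It was lost without any 1 of ETV6-RUNX1 fetal liver replicates 1 to 3 or bone marrow replicates 1 and 3, with 0.51 (limma adjusted p = 0.142) without bone marrow replicate 3. With the pseudogene covariate the Trp53inp1 value was 0.02 (limma adjusted p = 0.968). Summed Y-linked RNA did not overlap here either, at 198 to 220 CPM in fetal liver and 268 to 389 CPM in bone marrow. With the Y-linked covariate 7 of the 10 genes were called, 6 higher and 1 lower, beside 3344 of all genes tested. Sex composition and source cannot be told apart here either. Mdm2, Zmat3 and Sesn2 also had groups without overlap, at mean ratios of 1.52, 1.59 and 0.718, and did not pass (limma adjusted p of 0.0788, 0.0744 and 0.102). The share of all genes tested without overlap was not computed, so the lack of overlap sets none of these genes apart.

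The 9 targets also varied together among replicates of a group. In WT fetal liver replicate 1 had the highest value for 9 of 9 targets, against 37.9% of all genes tested. Replicate 2 had the lowest for 7, against 22.8% of all genes. In ETV6-RUNX1 fetal liver replicate 1 was lowest for 9 of 9 targets, against 30.3% of all genes. WT bone marrow replicate 1 was lowest for 8 of 9, where 49.3% of all genes were lowest, and replicate 3 was highest for 7, against 34.4%. ETV6-RUNX1 bone marrow was more mixed, with replicate 3 lowest for 6 targets (42.4% of all genes) and replicate 2 highest for 5 (30.8%). Most targets thus shared a lowest library in each of the 4 groups, and the counts are a description, since targets of a library share its RNA and depth.

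The spread of Trp53 was small. Its highest library was 1.04 times its lowest in WT fetal liver, 1.09 times in ETV6-RUNX1 fetal liver, 1.21 times in WT bone marrow and 1.09 times in ETV6-RUNX1 bone marrow. The coefficient of variation of Trp53 was 2.1% in WT fetal liver, where that of Aen was 8.6%, that of Cdkn1a 46.7% and that of Eda2r 59.4%. In WT bone marrow Trp53 (9.7%) and Aen (9.1%) varied about as much as each other. In WT fetal liver the library with the most Trp53, replicate 1 at 654 CPM, had the most of 9 of 9 targets, and in ETV6-RUNX1 fetal liver the library with the least Trp53, replicate 1 at 370 CPM, had the least of 9 of 9. In WT bone marrow the order was the opposite, and the library with the most Trp53, replicate 1 at 703 CPM, had the least of 8 targets. In ETV6-RUNX1 bone marrow the library with the most Trp53, replicate 3 at 590 CPM, had the least of 6 targets.

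**Figure D3:**
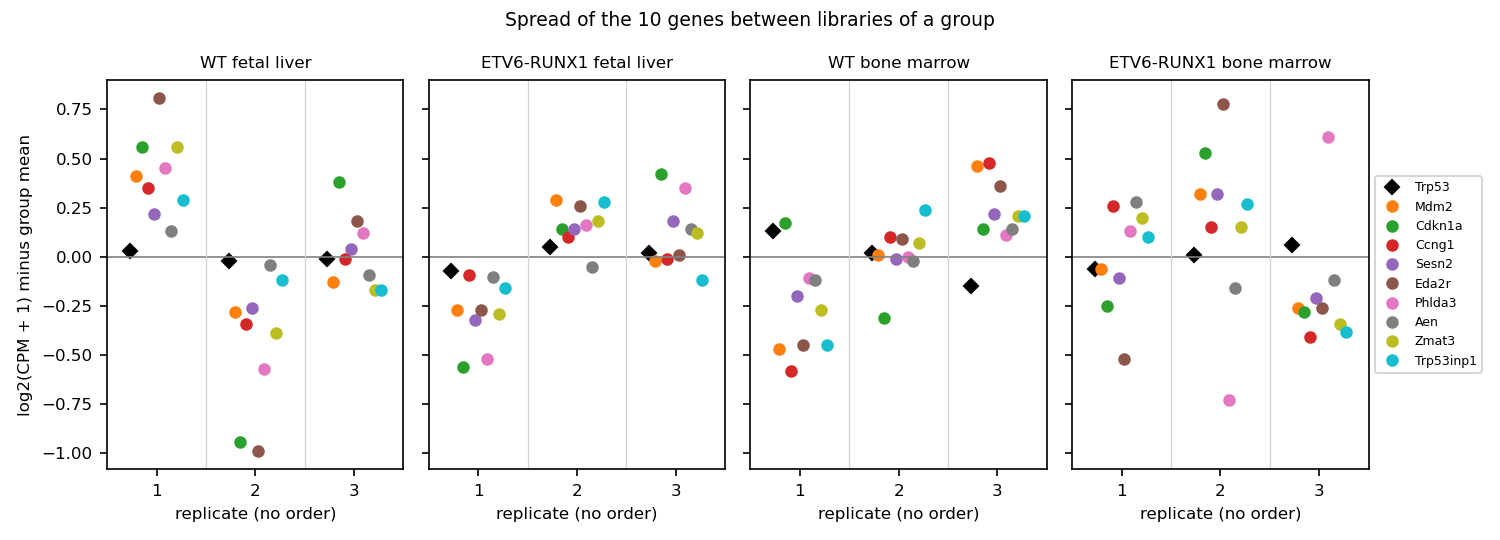
Deviation of each library from its group's mean, in log2(CPM + 1), for Trp53 and the 9 targets in the 4 groups. WT fetal liver replicate 1 lies above the mean for 9 of 9 targets and ETV6-RUNX1 fetal liver replicate 1 below it for 9 of 9, while Trp53 spans at most a 1.21-fold range in a group.

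The wider pathway was described with 70 further genes listed from general knowledge in 6 roles, of which 65 were tested. In fetal liver the fusion cells had 18 of them called higher and 11 called lower, beside 24.8% of all genes tested called higher and 18.3% lower (43.1% in all), so the share called was close to the background. The median log2 fold change was 0.08, as it was over all genes tested. Among 11 genes of cell cycle and growth arrest, 6 were higher and 1 lower, with a median of 0.46, to be read against the same 24.8% and 18.3% of all genes, as are the next counts. Among 12 cell death genes, 4 were higher and 3 lower. Among 15 regulators of p53, 3 were higher (Mdm4, Ep300 and Crebbp) and 1 lower (Chek1). Of 7 DNA repair and nucleotide supply genes, Polk was higher and Pcna lower.

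The largest rises in fetal liver were in Pmaip1, which encodes the death activator Noxa, and in the kinase gene Plk2. Pmaip1 rose from 7.96 ± 4.64 to 28.4 ± 7.72 CPM (SD, n = 3; log2 fold change 1.85, limma adjusted p = 0.0133), and Plk2 from 20.6 ± 5.53 to 64.9 ± 17.1 CPM (1.61, limma adjusted p = 0.0104). Rap2b, a small GTPase gene, rose from 42.3 ± 11.3 to 128 ± 7.88 CPM, and the immediate early gene Ier5 from 4.01 ± 0.548 to 13.7 ± 7.67 CPM. The Pmaip1 call was lost in 7 of 23 alternatives, among them edgeR (1.74, adjusted p = 0.055), DESeq2 (1.76, adjusted p = 0.0848) and leaving out WT fetal liver replicate 2 (1.34, limma adjusted p = 0.0716) or ETV6-RUNX1 fetal liver replicate 1 (1.65, limma adjusted p = 0.0527). With the Y-linked covariate the values were -0.25 for Pmaip1, -0.34 for Plk2 and 0.19 for Rap2b, and with the pseudogene covariate 1.26 for Pmaip1 and 0.94 for Plk2, and these calls were lost.

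The largest falls were in Perp, a membrane protein gene of p53-dependent death, from 6.32 ± 4.65 to 0.534 ± 0.345 CPM (log2 fold change -2.10, limma adjusted p = 0.00279), and in the long non-coding RNA Pvt1, from 6.34 ± 1.33 to 2.37 ± 1.33 CPM. Fdxr, a mitochondrial reductase gene, fell from 25.4 ± 2.05 to 11.1 ± 0.664 CPM (-1.12, limma adjusted p = 4.67e-05), and the death gene Siva1 from 169 ± 16.6 to 85.9 ± 10.3 CPM (-0.97, limma adjusted p = 0.000587). With the Y-linked covariate Siva1 was at -0.44 (limma adjusted p = 0.445), and Perp, Pvt1 and Fdxr kept their calls. Known p53 targets were therefore called in both directions within the same role, cell death, in the same libraries.

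In bone marrow 5 of the 65 genes were called higher and 2 lower, beside 14.4% of all genes tested called higher and 4.93% lower, with a median of 0.04 where all genes had 0.13. The BH3 gene Bbc3, which encodes Puma, rose from 1.59 ± 0.186 to 5.16 ± 1.08 CPM (log2 fold change 1.24, limma adjusted p = 0.0033), Ier5 from 3.81 ± 1.12 to 10.5 ± 2.17 CPM (1.26, limma adjusted p = 0.0108) and Hexim1, an inhibitor of transcription elongation, from 8.44 ± 1.62 to 17.6 ± 2.8 CPM (0.98, limma adjusted p = 0.0084). Ddit4, an inhibitor of mTORC1 signalling like Sesn2, rose from 2.76 ± 1.76 to 6.83 ± 1.07 CPM (1.17, limma adjusted p = 0.0411), a call kept in 7 of 22 alternatives and lost, among others, without WT replicate 1 (0.75, limma adjusted p = 0.153). The replication clamp gene Pcna fell from 315 ± 39.3 to 205 ± 36 CPM and the checkpoint kinase gene Chek1 from 50.3 ± 5.32 to 33.6 ± 6.04 CPM. Bbc3, Ndn, Ier5, Pcna and Chek1 were called in the same direction in both sources. The share of all genes tested that did so was not computed, so this describes these genes only. In bone marrow the Chek1 call was kept in 19 of 23 alternatives and the Ier5 call in 22 of 23.

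For the difference between the sources, Fdxr and Bax were the 2 of 65 genes called, both lower, beside 9.19% of all genes tested called (3.62% lower). Fdxr was near 23.3 ± 2.41 CPM in WT and 21.3 ± 1.71 CPM in ETV6-RUNX1 bone marrow, so the difference of -1.00 (limma adjusted p = 0.00974) came with its fall in fetal liver. Bax, the death effector gene, measured 354 ± 79.9 CPM in WT fetal liver, 215 ± 17.7 in ETV6-RUNX1 fetal liver, 194 ± 23 in WT bone marrow and 212 ± 16.4 CPM in ETV6-RUNX1 bone marrow. Its difference was -0.82 (limma adjusted p = 0.0377) and passed in 8 of 22 alternatives. In the comparison of sources within WT cells 2 of 65 genes were called higher in fetal liver (Bax and Hexim1) and 4 lower, beside 3.38% and 7.77% of all genes tested. Within ETV6-RUNX1 cells 5 were higher and 8 lower, beside 10.4% and 18.2% of all genes.

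**Figure D4:**
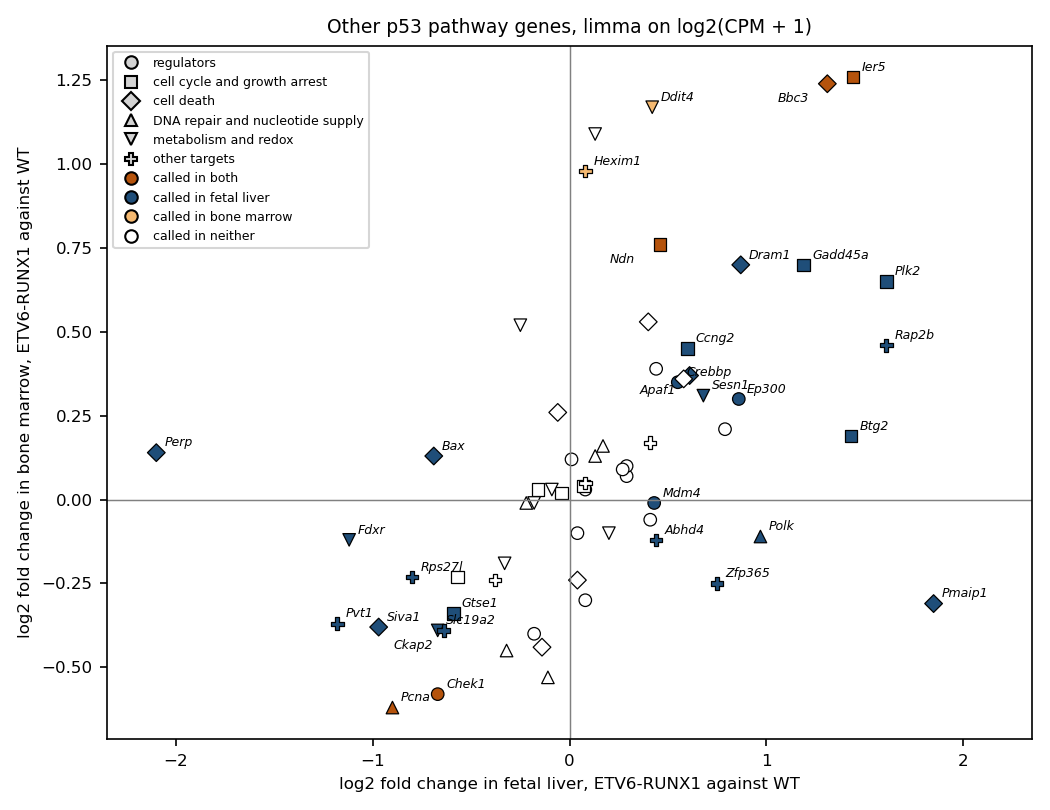
Log2 fold change of ETV6-RUNX1 against WT in fetal liver (x axis) and in bone marrow (y axis), on the log2(CPM + 1) scale, for the 65 tested genes of the wider pathway, with marker shapes for roles and fill colors for the source in which a gene was called. In fetal liver 18 genes were called higher and 11 lower, and in bone marrow 5 and 2.

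The genes whose pattern was most like that of Trp53 over the 12 libraries, by the root mean square difference of log2(CPM + 1) centred on each gene's mean, were Coq9 (0.068), Fancl (0.082), Zfp330 (0.087), Gm5449 (0.09) and Msto1 (0.09). Coq9 had means of 72.3 CPM in WT and 46.7 CPM in ETV6-RUNX1 fetal liver, and 77.3 and 67.7 CPM in bone marrow. None of the 9 targets was among these 5, which says little about them, since a list of 5 from 14271 genes would seldom hold any of 9 given genes. Gm5449 is a processed pseudogene at no more than 1.95 CPM on average in any group.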

How the data were processed

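Per the labels' protocols, RNA was purified with a Norgen kit for single cells, made into SMARTer stranded total RNA libraries and read as paired ends by a NovaSeq. The submitters' processing notes name bcl2fastq, STAR 2.5.1a, Subread with featureCounts 1.4.6-p5, Salmon 0.8.2, edgeR, limma and GRCm38, without roles. Annotation release and use of strand are not given in the sources used here. The authors deposited CPM per gene, and every value came back as whole reads (within 0.01). Of 40757 entries, 276 repeats were dropped.

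Genes that reached 1 CPM in 3 or more libraries were tested with limma 3.58.1 (R 4.3.3) on log2(CPM + 1), with 4 group coefficients, a mean-variance trend, 8 residual degrees of freedom and two-sided Benjamini-Hochberg adjusted p. The script was tested on simulated data. Alternatives were a pseudocount of 0.1, 2 other filters, 2 scalings, a replicate block, 2 covariates, only the 6 libraries compared, leaving out each library, and edgeR 4.0.16 and DESeq2 1.42.0 on recovered reads. Coordinates and exon lengths come from GENCODE M21, and promoters from RefSeq. All 10 genes are named. Of the wider list, up to 4 rises and 4 falls per genotype comparison or interaction are named, among genes called with a mean of at least 5 CPM and, except for the interaction, no overlap. The genes and lists were chosen with earlier results of these data known. Genes singled out beyond this rule were chosen after their values were seen.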

Additional observations from a re-analysis of the deposited data

Results flagged for a closer look

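The effect of ETV6-RUNX1 differed between fetal liver and bone marrow for 4 genes by limma's interaction test, which is given as the log2 effect in fetal liver minus that in bone marrow. The values were -0.53 for Trp53 and 1.18 for Trp53inp1 among the 10 genes, and -1.00 for Fdxr and -0.82 for Bax in the wider pathway. In WT cells Trp53 measured 579 to 703 CPM in bone marrow and 631 to 654 CPM in fetal liver, and the fusion libraries of fetal liver stood apart at 370 to 403 CPM. Fdxr kept its call in 20 of 22 alternatives, Trp53inp1 in 10, Bax in 8 and Trp53 in 4.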

How the results depend on the processing

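With 3 libraries a group the exact permutation test cannot go below p = 0.1, and the adjusted p-values rest on a spread shared by 4 groups. Over all genes, other scalings moved the share of bone marrow calls that were higher from 74.5% to 53% (median-of-ratios), 48.5% (quantile), 50.5% (edgeR) and 52% (DESeq2), of fetal liver calls from 57.6% to 42% (quantile), and of calls between sources from 36.3% to 57.7%, 47.3%, 57.9% and 56% in ETV6-RUNX1 and from 30.3% to 40.7% and 41.5% (median-of-ratios and quantile) in WT cells. For the interaction the share moved from 60.6% to 73.8% (median-of-ratios) and 73.5% (edgeR). Under quantile normalization the median over all genes changed from 0.08 to -0.10 (log2) in fetal liver and from 0.13 to -0.04 in bone marrow.

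Replicate numbers did not pair the libraries: deviations of same-numbered libraries correlated at -0.08 to 0.22 between the fetal liver groups and -0.40 to 0.12 between the bone marrow groups. With the replicate block, 1 of 10 genes was called in bone marrow in place of 3 and 0 in place of 2 for the interaction. The block left 4 called in fetal liver, 0 between sources in WT and 2 in ETV6-RUNX1 cells.

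The number of the 10 genes called in bone marrow (3) was 1 with all genes with reads, median-of-ratios scaling or edgeR. For the interaction (2) it was 0 with all genes with reads or either covariate, and 1 with median-of-ratios, edgeR or DESeq2. Between sources in ETV6-RUNX1 cells (2) it was 1 with all genes with reads or the pseudogene covariate, 4 with quantile normalization, 5 with DESeq2 and 7 with the Y-linked covariate, and edgeR called 3. In WT cells (0) it was 3 with median-of-ratios, quantile, edgeR or DESeq2, 1 with the pseudogene and 5 with the Y-linked covariate. In fetal liver (4) it was 2 with the Y-linked covariate, Eda2r (-2.27) and Ccng1 (-1.02), neither among the 4. Leaving out 1 library gave 1 to 3 in bone marrow, 4 to 5 in fetal liver, 0 to 2 for the interaction, 1 to 3 between sources in ETV6-RUNX1 and 0 to 2 in WT cells. Over all genes, the WT count (1591) was 1599 with median-of-ratios, 1550 with quantile, 1601 with edgeR and 2127 with DESeq2. With the pseudogene and Y-linked covariates the all-gene WT count was 1935 and 256. The all-gene ETV6-RUNX1 count (4088) was 3933 with quantile, 3755 with DESeq2, 3241 with edgeR, and 3203 and 3344 with those covariates. That of bone marrow (2763) was 2792 with median-of-ratios and 2739 with edgeR.

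Of the wider list, the count in bone marrow (7) was 11 with quantile normalization or DESeq2 and 16 with the pseudogene covariate. In fetal liver (29) it was 6 with the Y-linked covariate. For the interaction (2) it was 1 with all genes with reads or the Y-linked covariate, 0 with the pseudogene covariate, 3 with edgeR or the replicate block and 5 with quantile normalization or DESeq2. In ETV6-RUNX1 cells (13) it was 8 with the pseudogene covariate, and in WT cells (6) 2 with all genes with reads or the Y-linked covariate and 11 with DESeq2. Leaving out 1 library gave 5 to 12, 21 to 31, 1 to 9, 10 to 16 and 2 to 10 in that order of comparisons. Over all genes, the bone marrow count of 2763 was 1678 with only the 6 libraries. It was 2572 with quantile normalization, 3297 with DESeq2 and 3881 with the pseudogene covariate, so the rise with that covariate was not particular to the wider list. The fetal liver count of 6151 was 1081, and the WT count of 1591 was 256, with the Y-linked covariate. The interaction count of 1311 was 767 with all genes with reads, 540 with the pseudogene and 407 with the Y-linked covariate. It was 1491 with quantile normalization, 1769 with DESeq2, 1105 with edgeR and 1033 with the replicate block. Leaving out 1 library gave 1493 to 2901 in bone marrow, 4654 to 6634 in fetal liver, 697 to 2329 for the interaction, 2695 to 4609 in ETV6-RUNX1 and 864 to 2785 in WT cells.

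Signs turned mostly for genes not called. In fetal liver the Y-linked covariate gave -1.02 for Ccng1 (limma adjusted p = 0.0416), -0.66 for Cdkn1a, -0.09 for Mdm2, -0.34 for Plk2, -0.25 for Pmaip1, -0.21 for Sesn2 and -1.05 for Zmat3, and the pseudogene covariate -0.16 for Ccng1 and -0.25 for Zmat3. Zmat3 was also -0.02, -0.21, -0.09 and -0.07 with median-of-ratios, quantile, edgeR and DESeq2. In bone marrow Aen was -0.06, -0.06, -0.06 and -0.05 under the same 4, Zmat3 -0.08 with quantile normalization and -0.09 with the Y-linked covariate, Ccng1 -0.00 with the Y-linked and Eda2r 0.04 with the pseudogene covariate. For the interaction Eda2r was -0.80 and -1.31 and Mdm2 -0.55 and -0.57 with the pseudogene and Y-linked covariates, Phlda3 0.15 with the pseudogene covariate, and Eda2r -0.09 and -0.08 with edgeR and DESeq2. Between sources the pseudogene covariate gave -0.43 for Ccng1, -0.38 for Eda2r and -0.03 for Mdm2 in ETV6-RUNX1 cells, and in WT cells Trp53 was 0.09, 0.09 and 0.08 with median-of-ratios, edgeR and DESeq2, and Trp53inp1 0.68 with the Y-linked covariate. The cause was not tested.

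Leaving out 1 library turned the sign of Aen (-0.06 to 0.16) and Phlda3 (-0.45 to 0.22) in bone marrow and of Eda2r (-0.80 to 0.10) and Zmat3 (-0.15 to 0.33) in fetal liver. For the interaction it did so for Ccng1 (-0.37 to 0.16), Eda2r (-0.38 to 0.52), Mdm2 (-0.02 to 0.45), Phlda3 (-0.51 to 0.16) and Zmat3 (-0.35 to 0.12). Between sources it did so for Ccng1 in ETV6-RUNX1 (-0.05 to 0.29), and for Eda2r (-0.15 to 0.75) and Trp53 (-0.08 to 0.06) in WT cells.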
